A study of Mus musculus with 2 samples.

Results

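The genes described here are 37 interferon-stimulated genes and regulators of the interferon response, read from RNA sequencing of purified mouse small-intestinal villi. They were chosen by gene symbol, and a symbol with several transcripts was represented by the transcript with the highest mean. Of the 37, 36 had a row among 20722 symbols, and the expression of Irf7 was not analysed here, so that it enters only the counts of promoter windows. Of those 36, 31 were measured, meaning a mean of at least 20 normalised reads over both libraries, as were 6001 of all genes. The study compared 2 libraries, 1 per genotype, so nothing below is backed by replicates and genotype cannot be tested. The library labelled dKO (double knockout) came from C57BL/6 mice carrying Rosa26-CreERT2, Cdkn2a-/-, Ring1a-/- and Ring1bf/f. The control library, labelled wild type, came from the same strain with Rosa26-CreERT2 and Cdkn2a-/-, so Cdkn2a is deleted and the tamoxifen-inducible Cre is present in both. Both genotypes received 3 tamoxifen injections and were taken 6 days later, and the labels give neither age nor the number of mice per library. CreERT2 at Rosa26 is expressed broadly, so recombination was not limited to the epithelium by design.

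Interferons are secreted proteins that cells release when sensors detect foreign or misplaced nucleic acid. Type I interferons signal through a receptor found on most cells, and type III interferons (lambda) through a receptor concentrated on epithelia such as the gut lining. Both activate the kinases Jak1 and Tyk2 and a transcription factor complex, with Stat2 and Irf9 among its parts, that binds the interferon-stimulated response element (ISRE) of target genes. The products include enzymes that degrade or modify viral RNA, the ubiquitin-like modifier Isg15, and more of the sensors and transcription factors themselves, which makes the response self-amplifying. In the intestine a basal level of these transcripts is kept up by signals from the microbiota.

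The ISRE core searched was GAAA, any 2 bases and GAAA, on both strands, in RefSeq promoter windows of build GRCm38.p6 that run from 250 bases before to 50 bases after the annotated start. The reads themselves were aligned to mm9, and no coordinate of that build is used. Windows were found for 28 of the 37 genes, and 13 of the 28 (46.4%) held the core, against 3.99% of 27025 genes with a window. The activator site of STAT dimers, TTC, any 3 bases and GAA, was in 6 of the 28 (21.4%) and in 9.55% of all genes. At least 2 matches to the ISRE core, overlapping ones included, were found in 6 of the 28 (21.4%) and in 0.266% of all genes. The promoters of 4 genes are shown in full because they carry the core beside different ratios between the libraries, with the core in capitals and the gene's sense strand 5′ to 3′. Isg15 (chr4:156200769-156201068, minus strand) holds 3 overlapping matches, Rsad2 (chr12:26456403-26456702, minus strand) and Oas3 (chr5:120777610-120777909, minus strand) 1 each, and Ifit1 (chr19:34640639-34640938, plus strand) 2.
Isg15: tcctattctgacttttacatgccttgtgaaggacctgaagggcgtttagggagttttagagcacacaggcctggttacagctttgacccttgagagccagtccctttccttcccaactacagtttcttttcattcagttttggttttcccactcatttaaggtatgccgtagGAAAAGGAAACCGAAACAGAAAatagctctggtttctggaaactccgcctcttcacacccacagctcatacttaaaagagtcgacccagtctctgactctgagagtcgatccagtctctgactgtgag
Rsad2: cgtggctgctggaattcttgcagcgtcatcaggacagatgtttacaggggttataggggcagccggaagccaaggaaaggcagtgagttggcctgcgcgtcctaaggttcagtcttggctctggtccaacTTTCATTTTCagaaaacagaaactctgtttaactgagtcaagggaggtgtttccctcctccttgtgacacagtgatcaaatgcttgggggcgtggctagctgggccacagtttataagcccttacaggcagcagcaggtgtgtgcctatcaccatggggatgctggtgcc
Ifit1: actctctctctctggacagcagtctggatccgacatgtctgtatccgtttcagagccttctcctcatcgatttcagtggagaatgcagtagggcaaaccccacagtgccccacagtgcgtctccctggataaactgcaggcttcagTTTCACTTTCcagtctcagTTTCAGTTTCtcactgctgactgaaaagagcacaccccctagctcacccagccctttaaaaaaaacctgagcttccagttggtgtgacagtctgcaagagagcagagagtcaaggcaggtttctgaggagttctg
Oas3: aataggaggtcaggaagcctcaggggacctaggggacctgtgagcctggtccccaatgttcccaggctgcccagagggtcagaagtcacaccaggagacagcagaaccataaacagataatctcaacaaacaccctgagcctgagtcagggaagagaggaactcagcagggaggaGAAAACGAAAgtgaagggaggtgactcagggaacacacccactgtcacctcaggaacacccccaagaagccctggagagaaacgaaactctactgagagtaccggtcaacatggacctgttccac

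Shorter stretches around the core are shown for 4 more genes. Oas1a (chr5:120907522-120907553, minus strand) and Oas1g (chr5:120887608-120887639, minus strand) are near copies, and their stretches are identical, while their whole windows are 85.3% identical. Stat2 (chr10:128270268-128270293, plus strand) and Cxcl10 (chr5:92349085-92349110, minus strand) each hold a single match.
Oas1a: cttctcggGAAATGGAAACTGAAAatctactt
Oas1g: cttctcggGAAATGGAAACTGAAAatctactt
Stat2: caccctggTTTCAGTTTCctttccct
Cxcl10: acgctttgGAAAGTGAAActtacctc
A gene was called lower where its level in the dKO-labelled library was at least 2-fold below that in the control. Of 12 measured genes with the core 2 were called lower (median log2 ratio -0.20), and of 12 measured genes with a window and no core 2 were (median -0.34). Among all measured genes 4.18% were called lower, with a median of 0.51. Cxcl10 with the core and Ifi44 without it passed the limit on the mean through the control. Of the 8 interferon-stimulated genes called lower in all, Oas2, Usp18, Zbp1 and Parp14 had no window in the table and are in neither count. A match is a string of letters and is not evidence of binding.

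The dKO-labelled library held 1058196 recovered reads and the control library 775827. Of the targeted genes, Ring1 (Ring1a) had 10 reads in the dKO-labelled and 10 in the control library, and Rnf2 (Ring1b) 82 (dKO-labelled) and 59 (control), a scaled ratio of 1.25 (0.886 to 1.78). Neither was lower beyond counting error. Counts over whole transcripts do not show a deleted exon, so the label is neither checked nor contradicted by them, and the library is called dKO-labelled. Reads of the X-inactivation transcript Xist numbered 1 in the dKO-labelled library and 80 in the control, whereas those of the Y-linked Ddx3y numbered 131 (dKO-labelled) and 0 (control). Sex, animal and genotype therefore cannot be told apart in any ratio below. Brackets after a ratio give its 95% exact counting interval (Clopper-Pearson), which covers counting error only. The sources used here do not say whether PCR duplicates were removed, and no correction for them was made here.

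The interferon-stimulated genes listed here were lower in the dKO-labelled library more often than genes at large. Other interferon-stimulated genes, outside the list, went both ways. The list and the 2-fold rule were chosen with earlier results of these data known, so the contrast is descriptive only. Of the 31 measured, 8 (25.8%) were at least 2-fold lower, against a background of 4.18% (251 of 6001 genes), and 0 were at least 2-fold higher, against 26.2% of all genes. The 8 were Oas2, Ifi44, Usp18, Zbp1, Herc6, Rsad2, Cxcl10 and Parp14. Of these, Oas2, Ifi44 and Cxcl10 were under 20 normalised reads in the dKO-labelled library. They passed the limit on the mean through the control, so they had to be lower there. The median log2 ratio, dKO-labelled over control, was -0.45 for the 31 genes and 0.51 for all measured genes. Log2 ratios below 0 were found for 21 of the 31 genes and for 24.6% of all genes, and 30 of the 31 lay below the median of all measured genes. Ifit3 was the exception. The count of lower genes depended on scaling and level. It was 13 with the median of all genes set to 0, 14 with TMM and 17 with the upper quartile, where all genes lower numbered 626, 665 and 818. At a mean of at least 100 it was 3 of the 21 genes kept, against 104 of 2414 genes. In the alternative settings that kept a gene, at most 11, 21 of the 31 genes stayed below 0 and Ifit3 stayed above, while 9 changed side, and 0 of the 8 called genes changed sign. In bulk villi, fewer cells of a type and less RNA per cell cannot be told apart.

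**Figure D1:**
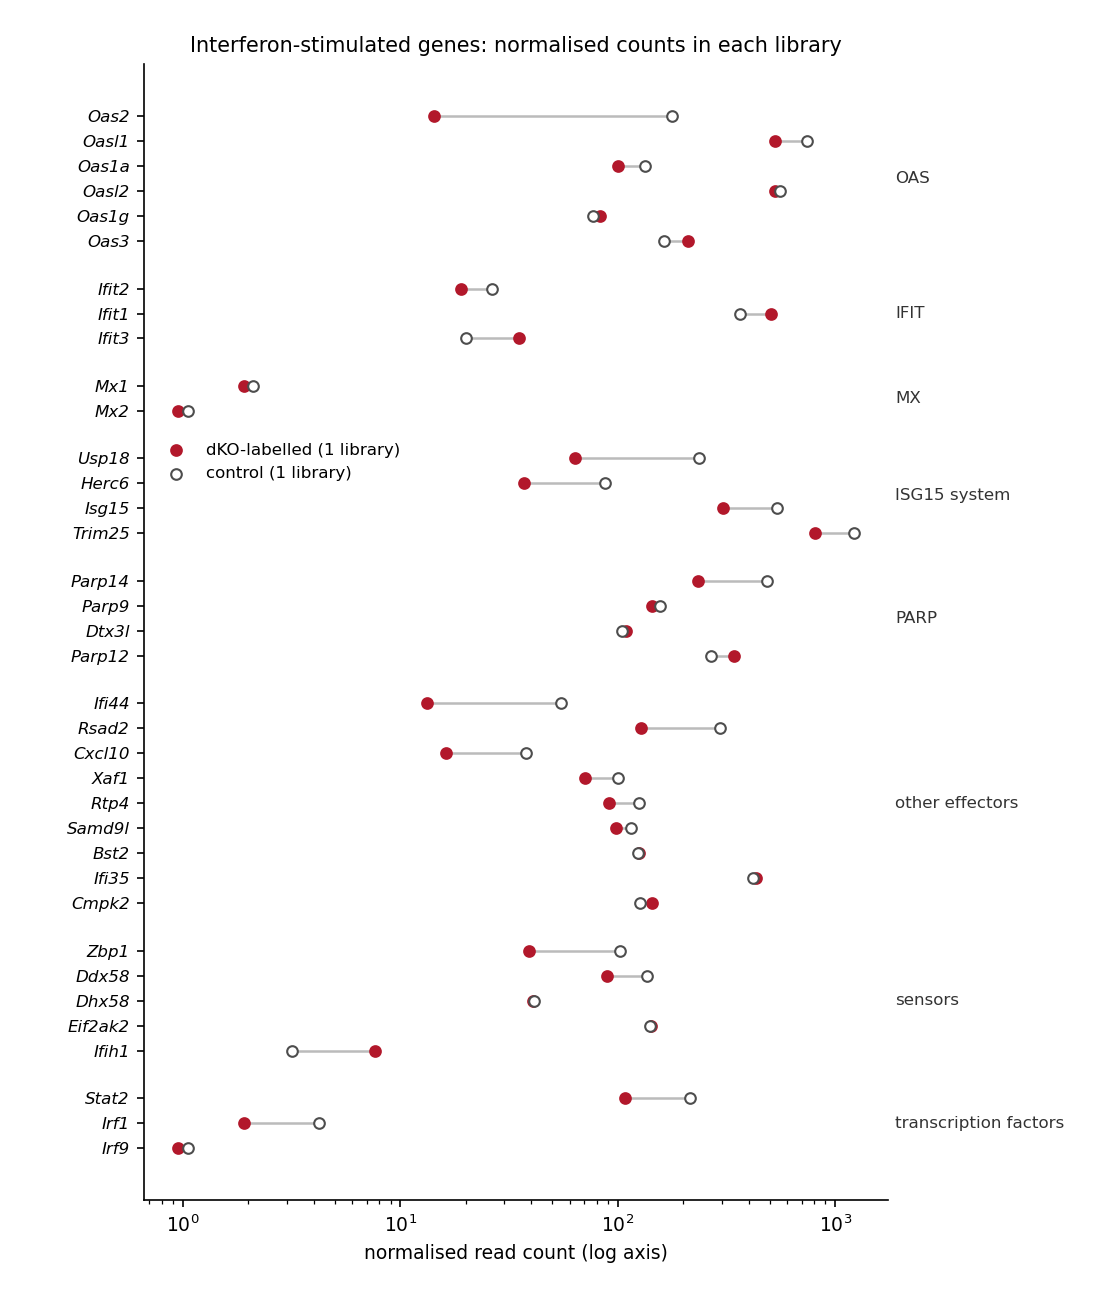
Normalised read counts (horizontal log axis) of the 36 genes with a row, grouped by role, in the dKO-labelled library (filled circles) and the control library (open circles), 1 library each. Oas2, Usp18 and Ifi44 show the widest gaps, with counts of 14.2, 63.6 and 13.3 in the dKO-labelled library and 177, 235 and 54.8 in the control, and Mx1, Mx2, Irf1, Irf9 and Ifih1 lie near the lower end in both.

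Markers of the cells present are given beside these counts. Epithelial markers (9 of 9 measured) summed to 12308 normalised reads in the dKO-labelled library, against 10400.1 in the control, with reads of 9 of 9 in each library. Markers of leukocytes summed to 742 (dKO-labelled) and 532 (control) over 28 genes with a row, a read ratio of 1.42 (1.27 to 1.60). Of 10 measured, 2 were higher, against 26.2% of all genes, and 0 lower, against 4.18%. Their median log2 ratio was 0.32, below the 0.51 of all measured genes. The general leukocyte gene Ptprc had 0 reads in each library, as had Ncr1 of the T and natural killer cell markers. Laptm5, another general leukocyte marker, had 90 (dKO-labelled) and 77 (control) reads. Coro1a, of the same list, had 55 (dKO-labelled) and 18 (control), a ratio of 2.75 (1.59 to 4.98). Igj, of the B and plasma cell markers, had 82 (dKO-labelled) and 29 (control), a ratio of 2.55 (1.65 to 4.04). Coro1a and Igj were the 2 higher genes and are named to complete that count, after their values were seen. RefSeq lists 3 transcripts for Ptprc, of which 1 has a row, and the part of counting by transcript in its 0 was not tested. T and natural killer cell markers summed to 176 (dKO-labelled) and 124 (control) over 8 genes, 2 of them measured (1.45-fold, 1.14 to 1.86). B and plasma cell markers summed to 101 (dKO-labelled) and 39.0 (control) over 5 genes, 1 of them measured (2.85-fold, 1.89 to 4.38). Macrophage and dendritic markers summed to 312 (dKO-labelled) and 246 (control) over 11 genes (1.29-fold, 1.08 to 1.53). Stromal markers summed to 339 (dKO-labelled) and 66.4 (control) over 9 genes (5.81-fold, 4.35 to 7.89), with 6 of 6 measured higher, against 26.2% of all genes. Of those 6, 5 were under 20 normalised reads in the control and passed the limit on the mean through the dKO-labelled library, so these had to differ. Endothelial markers summed to 52.2 (dKO-labelled) and 62.1 (control) over 6 genes, a read ratio whose interval includes equality (0.553 to 1.25), and its genes went both ways. Tie1, the 1 measured, had 5.70 normalised reads dKO-labelled and 51.6 control and passed the limit through the control, whereas Lyve1 had 19 reads dKO-labelled and 1 control and Vwf 10 reads dKO-labelled and 0 control. These genes are named after their values were seen. The summed reads of the 36 interferon-stimulated genes were 5862 (dKO-labelled) and 6990 (control), 1.32-fold lower after scaling. The part of cell composition in the ratios was not tested.

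The genes ranged in log2 ratio from -3.55 (Oas2) to 0.78 (Ifit3). Counting intervals lay wholly below equal abundance for 16 of the 31 genes (12.1% of all measured genes) and wholly above it for 3 (52.5% of all). They lay wholly beyond 2-fold lower for 3 of 31, namely Oas2, Ifi44 and Usp18, against 1.73% of all measured genes. The gene nearest to the 2-fold limit on the inside was Parp14 (log2 ratio -1.06), and the nearest outside was Stat2 (-0.995). Oas2, Ifi44, Cxcl10 and Ifit2 stood under 20 in the dKO-labelled library and passed the limit on the mean through the control.

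The oligoadenylate synthetases (OAS) sense double-stranded RNA and make oligoadenylates that activate RNase L, which cuts RNA. Oas2 had 14.2 normalised reads (14 reads) in the dKO-labelled library and 177 (167 reads) in the control, 13.2-fold lower (7.67 to 24.7). Its neighbour in the gene cluster, Oas3, had 209 (dKO-labelled) and 163 (control) normalised reads, a ratio of 1.28 (1.04 to 1.59), whose log2 value lay below 0 with TMM, upper-quartile or median scaling. The pair can be compared inside each library, where scaling cancels: the Oas2 ratio was 16.9-fold below the Oas3 ratio (9.34 to 32.8). No stretch of 50 bases of the Oas2 transcript was found in another gene's transcripts, so its reads are not shared with a paralog at that length. RefSeq lists 2 transcripts for Oas2, of which the table counts 1. In the authors' deposited table, made from 1 library per genotype, Oas2 had an unadjusted p-value of 0.0160. It was the 1 of the 36 genes under 0.05 there, as were 123 of all 22040 rows.

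The other 4 OAS genes stayed within 2-fold with the deposited scaling, although with the upper quartile Oas1a and Oasl1 were beyond 2-fold lower, and Oasl1 with TMM. Oas1a had 99.7 normalised reads in the dKO-labelled library, against 133 in the control, a ratio of 0.750 (0.573 to 0.981). Its near copy Oas1g had 82.6 (dKO-labelled) and 76.9 (control), a ratio of 1.08 (0.778 to 1.49) that was below 1 with the other scalings. These near copies share 57.6% of the 50-base stretches of Oas1a, so their split of reads is uncertain. Of the mouse OAS-like proteins, Oasl2 keeps the synthetase activity and Oasl1 lacks it and represses translation of Irf7 mRNA. Oasl1 had 528 (dKO-labelled) and 743 (control) normalised reads, a ratio of 0.711 (0.635 to 0.795), and Oasl2 had 525 (dKO-labelled) and 558 (control). Within the libraries the Oasl1 ratio lay 1.32-fold below that of Oasl2 (1.12 to 1.56). Across the OAS group 1 of 6 genes was at least 2-fold lower, against 4.18% of all genes, and 0 higher, against 26.2%, with a median log2 ratio of -0.25. The lower gene, Oas2, passed the limit on the mean through the control.

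The IFIT proteins bind foreign RNA that lacks the host cap marks and block its translation. Ifit1, the most abundant of the 3 measured, was higher in the dKO-labelled library with the deposited scaling. It had 506 normalised reads in the dKO-labelled library, against 365 in the control, a ratio of 1.39 (1.21 to 1.59), although its log2 value was below 0 with TMM, upper-quartile or median scaling. Ifit3 had 35.1 (dKO-labelled) and 20.01 (control), 1.80-fold (0.997 to 3.37), and Ifit2 19.0 (dKO-labelled) and 26.3 (control), a ratio of 0.714 (0.370 to 1.36). Of the 3 genes 0 were at least 2-fold lower or higher, against 4.18% and 26.2% of all genes. Of the Ifit3 stretches of 50 bases, 51.2% are also in Ifit3b, so its value is uncertain. Ifit1 stood 1.94-fold above Ifit2 within the libraries (1.00 to 3.81), an interval that only just leaves out equality, and Ifit1 over Ifit3 was 0.769 (0.404 to 1.42).

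Mx1 and Mx2, dynamin-like GTPases that trap viral nucleocapsids, were not measured. Mx1 had 1 read in each library and Mx2 had 0 reads in each, which allows up to 3 reads. In C57BL/6 and most laboratory strains Mx1 is disrupted by a deletion, which is background knowledge about the strain and not a result here.

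In the Isg15 group as drawn here (Isg15, Usp18, Herc6 and Trim25) 4 of 4 genes had a log2 ratio below 0, against 24.6% of all genes. Isg15 is attached to other proteins by a ligase, which in mouse is chiefly Herc6, and Usp18 removes it. Usp18 also blocks the type I interferon receptor, as a brake on signalling. Usp18 had 63.6 normalised reads in the dKO-labelled library, against 235 in the control (66 reads dKO-labelled and 222 control), 3.73-fold lower (2.82 to 4.99). Herc6 had 37.03 (dKO-labelled) and 87.4 (control), 2.39-fold lower (1.61 to 3.62), and 23.8% of its 50-base stretches are also in the overlapping annotation Gm45193. Isg15 itself had 303 (dKO-labelled) and 540 (control), 1.79-fold lower (1.55 to 2.06), and Trim25, an E3 ligase that activates the RIG-I pathway, had 804 (dKO-labelled) and 1220 (control), 1.52-fold lower (1.39 to 1.66).

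By the 2-fold rule 2 of these 4 genes were lower, against 4.18% of all genes, and 0 higher, against 26.2%, with a median log2 ratio of -1.03. Relative to the median of all measured genes, 4 of 4 were at least 2-fold below, against 10.4% of all measured genes. The Usp18 ratio lay 2.09-fold below that of Isg15 within the libraries (1.52 to 2.89). Herc6 over Isg15 was 0.746 (0.482 to 1.14), a difference not detectable at this depth. Of the wider conjugation pathway, the activating enzyme gene Uba7 and the conjugating enzyme gene Ube2l6, which are not among the 37, had log2 ratios of -0.61 and 0.08.

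**Figure D2:**
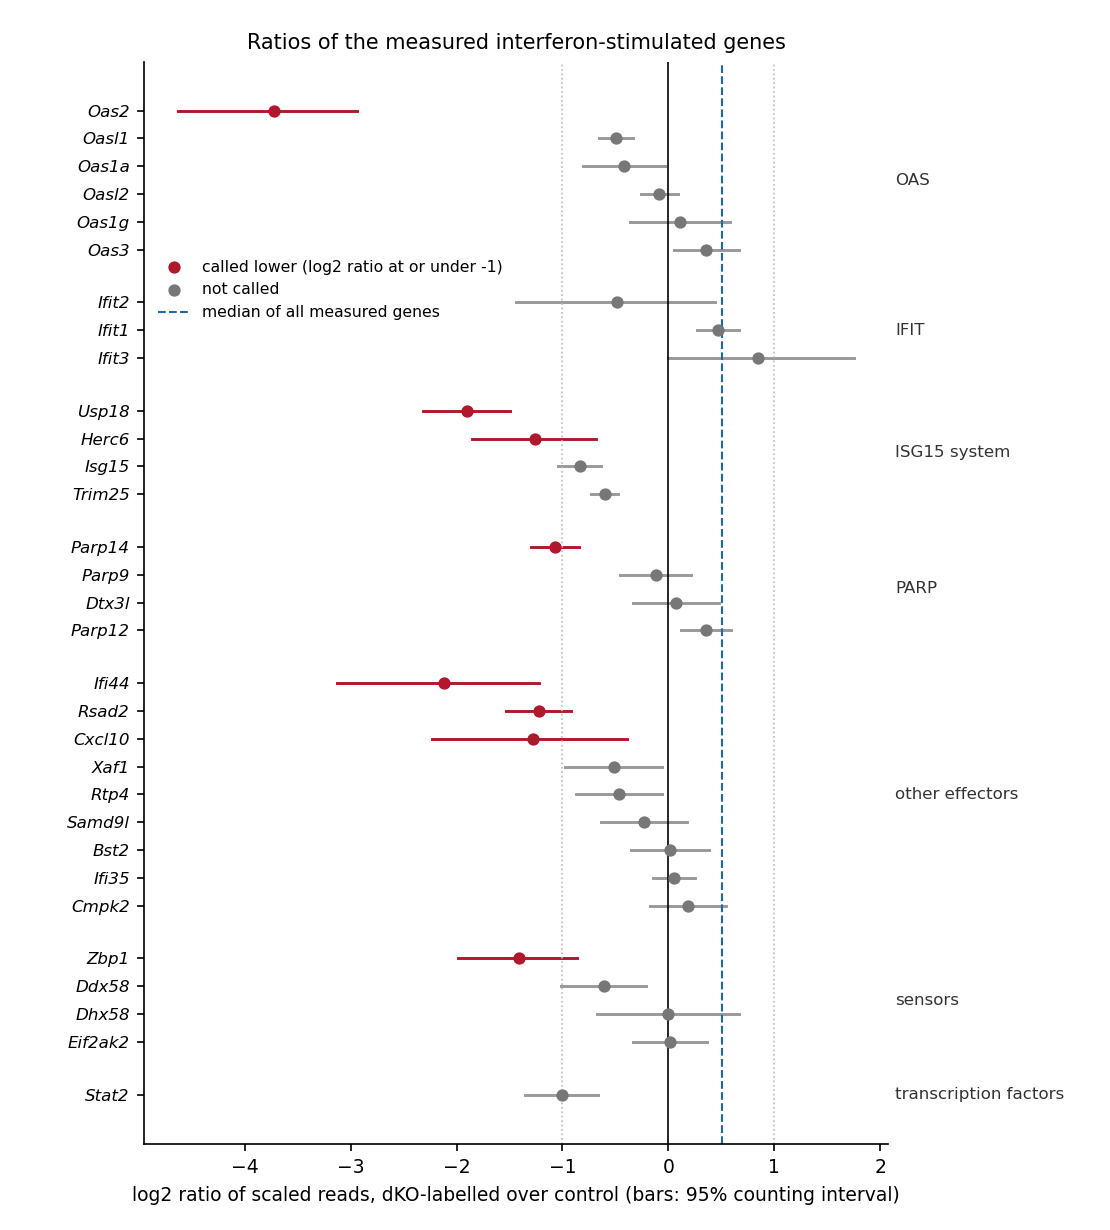
Log2 ratio of scaled reads, dKO-labelled over control, for the 31 measured genes, with 95% counting intervals as bars; red marks genes called at least 2-fold lower, the solid line is equality, the dotted lines are 2-fold and the dashed line is the median of all measured genes (0.51). The scaled-read ratio carries no pseudocount, so Stat2 sits on the dotted line although its log2 ratio with the pseudocount falls just short of it, and 1 gene, Ifit3, lies to the right of the dashed line.

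The ADP-ribosyltransferases add ADP-ribose to proteins and take part in antiviral defence and in DNA damage responses. Parp14 had 233 normalised reads in the dKO-labelled library, against 487 in the control, 2.10-fold lower (1.79 to 2.46). Parp9 had 143 (dKO-labelled) and 156 (control), and its partner Dtx3l, a ubiquitin ligase that forms a dimer with Parp9, had 109 (dKO-labelled) and 104 (control). These genes lie head to head, 10.3% of the Parp9 exonic bases overlap Dtx3l on the other strand, and the library kit does not mark strand, so some of their reads cannot be assigned. The ratio of Parp9 over Dtx3l was 0.877 (0.607 to 1.27). The ratio of Parp14 over its neighbour Parp9 was 1.93-fold lower (1.45 to 2.56). Parp12, an antiviral family member, had 341 (dKO-labelled) and 268 (control), a ratio of 1.28 (1.083 to 1.504) whose log2 value also lay below 0 with TMM, upper-quartile or median scaling. In all, 1 of 4 was lower, against 4.18% of all genes, and 0 higher, against 26.2%, with a median log2 ratio of -0.03.

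The remaining 9 effectors held 3 of the 8 lower genes (33.3% of the 9, against 4.18% of all genes). Of those 3, Ifi44 and Cxcl10 passed the limit on the mean through the control, so that share is descriptive only. Of the 9, 0 were higher, against 26.2%, and the median log2 ratio was -0.46. Rsad2 (viperin), a radical enzyme that makes a chain-terminating nucleotide, had 127 normalised reads in the dKO-labelled library, against 296 in the control, 2.34-fold lower (1.89 to 2.89). Cmpk2, the adjacent gene and a mitochondrial nucleotide kinase that supplies the substrate of viperin, had 143 (dKO-labelled) and 126 (control), a ratio of 1.14 (0.887 to 1.46) that was below 1 with the other scalings. Within the libraries Rsad2 lay 2.65-fold below Cmpk2 (1.91 to 3.69). The Rsad2 promoter printed above holds the core and the Cmpk2 window holds none. Ifi44, an interferon-induced cytoplasmic protein, had 13.3 (dKO-labelled) and 54.8 (control), 4.35-fold lower (2.33 to 8.72). Cxcl10, a chemokine that attracts T cells, had 16.1 (dKO-labelled) and 37.9 (control), 2.43-fold lower (1.31 to 4.70).

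The other 5 effectors lay nearer to equality with the deposited scaling. Rtp4, an interferon-induced receptor chaperone, had 91.1 normalised reads in the dKO-labelled library, against 125 in the control, a ratio of 0.726 (0.548 to 0.959). Xaf1, a pro-apoptotic factor, had 70.3 (dKO-labelled) and 100.1 (control), a ratio of 0.700 (0.508 to 0.961). Both intervals lay below equality. With the upper quartile both genes were beyond 2-fold lower, as was Xaf1 with TMM or median scaling. Samd9l, a growth-restraining antiviral protein, had 97.8 (dKO-labelled) and 115 (control), an interval that includes equality (0.643 to 1.13). Bst2 (tetherin), which holds budding virions at the membrane, had 125 (dKO-labelled) and 124 (control), and Ifi35 had 432 (dKO-labelled) and 416 (control). Bst2 and Ifi35 were within counting error of equal abundance with the deposited scaling, and both lay below 0 with the others. Of 28 effectors 26 were measured, 7 were at least 2-fold lower, against 4.18% of all genes, and 0 higher, against 26.2%, with a median log2 ratio of -0.43, against 0.51. Of the 7, Oas2, Ifi44 and Cxcl10 passed the limit on the mean through the control.

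Among the measured sensors of nucleic acid, only Zbp1 was called lower with the deposited scaling. Zbp1 binds left-handed double-stranded nucleic acid and can start necroptosis. Its representative transcript had 38.9 normalised reads in the dKO-labelled library, against 102 in the control, 2.66-fold lower (1.82 to 3.95), and its other transcript had 32.3 (dKO-labelled) and 50.6 (control). The log2 ratio of Zbp1 was -1.37 for the representative transcript and -1.10 with its rows summed. Ddx58 (RIG-I), a helicase that detects viral RNA ends, had 89.2 (dKO-labelled) and 136 (control), 1.53-fold lower (1.16 to 2.02). Dhx58 (LGP2), a regulator of that pathway, had 40.8 (dKO-labelled) and 41.1 (control), and Eif2ak2 (PKR), a kinase that stops translation when double-stranded RNA binds it, had 141 (dKO-labelled) and 140.1 (control). Zbp1 lay 2.68-fold below Eif2ak2 within the libraries (1.70 to 4.28), whereas Ddx58 over Dhx58 was 0.658 (0.380 to 1.14). Ifih1 (MDA5), the sensor of long double-stranded RNA, had 7 reads in the dKO-labelled library and 2 in the control and was not measured. Of 4 measured sensors 1 was lower, against 4.18% of all genes, and 0 higher, against 26.2%, and the median was -0.30. With TMM, upper-quartile or median scaling Ddx58 was also beyond 2-fold lower (log2 ratios of -1.12, -1.24 and -1.11).

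Of the 3 transcription factors with a row, 1 was measured, Stat2. It had 107 normalised reads in the dKO-labelled library, against 215 in the control (112 reads dKO-labelled and 203 control), 2.01-fold lower in scaled reads (1.59 to 2.56). With the pseudocount and the deposited scaling its log2 ratio fell just short of the 2-fold limit, so it is not among the 8. With the other scalings Stat2 was beyond 2-fold lower, at -1.29 (total counts), -1.52 (TMM), -1.63 (upper quartile) and -1.50 (median set to 0). Irf9, the DNA-binding part of the same complex, had 0 reads in each library, which allows up to 3 reads. Irf1, a factor that type II interferon induces, had 1 (dKO-labelled) and 3 (control) reads in its higher row.

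These low values sit beside a feature of the table. Irf1 has 2 transcript rows, and symbols with at least 2 rows were measured in 14.5% of cases, against 29.8% of symbols with 1 row. Split by RefSeq transcripts instead, 28.3% of genes with at least 2 were measured and 29.8% of genes with 1. RefSeq lists 3 transcripts for Irf1 and 3 for Irf9. No source used here names the counting tool, and the part of transcript-level counting in these low values was not tested, so they are no evidence of absent expression.

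**Figure D3:**
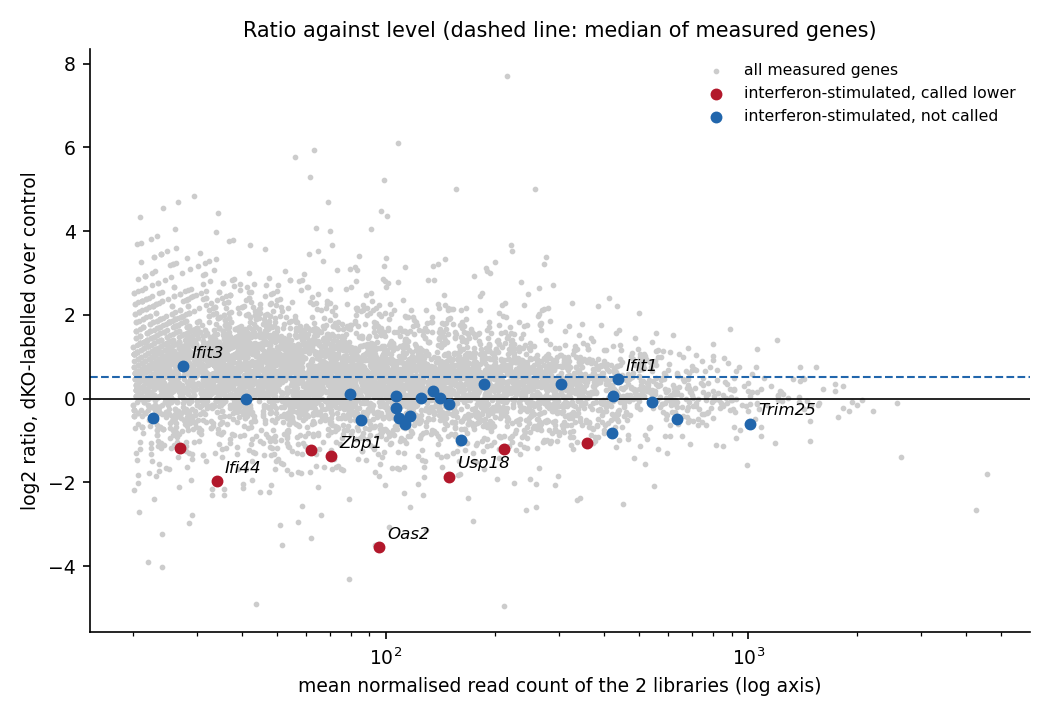
Log2 ratio, dKO-labelled over control (vertical), against the mean normalised read count of both libraries (horizontal log axis) for 6001 measured genes in grey and the 31 measured interferon-stimulated genes in colour, red where at least 2-fold lower. The dashed line is the median of all measured genes at 0.51, and 30 of the 31 coloured points lie below it over the whole range of levels.

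The ratio of genes at large depended on level and length. Over means of 20 to 50, 50 to 100, 100 to 200, 200 to 500 and above 500, the median log2 ratio of all genes was 0.77, 0.55, 0.40, 0.30 and 0.10. Over the same 5 ranges the interferon-stimulated genes had medians of -0.45 (5 genes), -1.22 (5), -0.17 (12), -0.39 (6) and -0.49 (3), which were uneven and had no order by level. Genes with transcripts under 2000 bases had a median of 0.65 and 2.53% lower calls. Those from 2000 to 4000 bases had 0.53 and 3.10%, and those of 4000 bases or more had 0.31 and 7.27%. The interferon-stimulated genes had medians of -0.43 over 10 genes under 2000 bases, -0.45 over 13 genes from 2000 to 4000 bases and -0.41 over 8 genes of 4000 bases or more, with 3, 3 and 2 lower calls. In each of the 3 length classes the interferon-stimulated median was below that of all genes.

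Levels per length, in normalised reads per kilobase, put Isg15 first in both libraries. It had 399 normalised reads per kilobase in the dKO-labelled library and 713 in the control, followed in the dKO-labelled library by Ifi35 (316), Oasl1 (248) and Ifit1 (190). In the control the next were Oasl1 (349), Ifi35 (305) and Trim25 (218). Usp18 had 35.4 (dKO-labelled) and 132 (control) normalised reads per kilobase, and Oas2 had 3.44 (dKO-labelled) and 45.5 (control). Of the measured genes, Oas2, Ifi44 and Ifit2 had the lowest levels per length in the dKO-labelled library, at 3.44, 4.24 and 4.72, whereas in the control Oas2 stood above Oas3 (45.5 and 34.4).

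**Figure D4:**
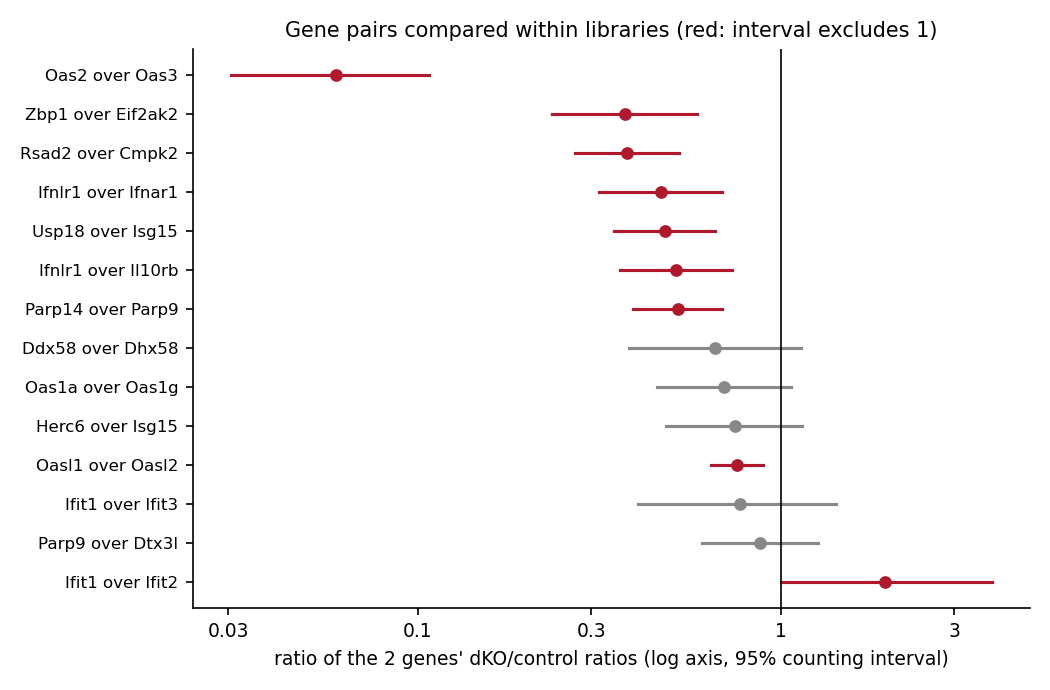
Ratio of the dKO/control ratios of 14 gene pairs (horizontal log axis), which does not depend on scaling, with 95% exact counting intervals; red marks the 9 intervals that leave out 1. The pairs were chosen with their values known, so the count of 9 is descriptive only. Oas2 over Oas3 lies furthest from 1 at 0.0592, and Ifit1 over Ifit2 is the only pair called above 1.

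Interferon transcripts were not detectable at this depth apart from 1 read. Of 18 interferon genes with a row, including Ifnb1, Ifnl2, Ifnl3 and Ifng, 18 had 0 reads in the dKO-labelled library, and 17 had 0 in the control, where Ifnk had 1 read. A count of 0 allows up to 3 reads.

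The receptor and signalling genes were lower in part. Ifnlr1, the ligand-specific chain of the type III receptor, had 84.5 normalised reads in the dKO-labelled library, against 151 in the control, a ratio of 0.559 (0.423 to 0.734). Its shared partner Il10rb had 184 (dKO-labelled) and 170 (control), and Ifnar1, a chain of the type I receptor, had 127 (dKO-labelled) and 106 (control). The Ifnlr1 ratio lay 2.14-fold below that of Ifnar1 (1.46 to 3.17) and 1.94-fold below that of Il10rb (1.37 to 2.77). Ifnar2 had 13 (dKO-labelled) and 17 (control) reads in its higher row and was not measured. The chains of the type II receptor, Ifngr1 and Ifngr2, had log2 ratios of -0.09 and 0.36, and Jak1 -0.41. Socs3, a feedback inhibitor of JAK-STAT signalling, had 66.5 (dKO-labelled) and 140 (control), 2.12-fold lower (1.57 to 2.88). Of 7 measured genes of this list 1 was lower, against 4.18% of all genes, and 0 higher, against 26.2%, with a median log2 ratio of -0.09.

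Genes that relay sensing to interferon production had no common direction. Of 7 measured, 1 was at least 2-fold higher, against 26.2% of all genes, and 1 lower, against 4.18%, with a median of 0.06. Ikbke, a kinase that activates Irf3 and Irf7, had 143 normalised reads in the dKO-labelled library, against 29.5 in the control, 5.01-fold higher (3.31 to 7.85). Its relative Tbk1 had 119 (dKO-labelled) and 191 (control), a ratio of 0.621 (0.490 to 0.785). Trim56, a ligase that promotes sensing of DNA and RNA, had 24.7 (dKO-labelled) and 134 (control), 5.59-fold lower (3.62 to 8.97). Ticam1 and Tlr3, an adaptor and its receptor for double-stranded RNA, each had a log2 ratio of 0.66, and Zc3hav1 -0.09. Of 5 other measured genes of the IRF and IRF-binding group 1 was higher, Irf2bp1 (2.54-fold, 1.54 to 4.34). Irf8 was at -0.13, Irf2 at 0.25 and Irf2bp2 at 0.26.

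Interferon-stimulated genes outside the 37 went both ways. Of 26 measured of 53 with a row, 5 (19.2%) were at least 2-fold higher, against 26.2% of all genes, and 4 (15.4%) lower, against 4.18%, with a median log2 ratio of 0.10. The lower ones were Nlrc5, the activator of class I antigen presentation genes (1 read in the dKO-labelled library and 43 in the control, 47.7-fold, 8.12 to 1927), the helicase gene Helz2 (3.82-fold, 3.00 to 4.90), Trim30a (3.75-fold, 2.64 to 5.43) and Trim34a (2.36-fold, 1.59 to 3.57). The higher ones were Ifitm2, a membrane protein that restricts viral entry (57 reads dKO-labelled and 6 control, 8.56-fold, 3.70 to 24.3), the lysosomal reductase gene Ifi30 (3.58-fold, 2.68 to 4.84), Ccl5 (3.49-fold, 1.95 to 6.62), Casp1 (3.34-fold, 2.27 to 5.03) and Tnfsf10 (2.55-fold, 1.44 to 4.72). Ifitm2, Ccl5 and Tnfsf10 were under 20 normalised reads in the control, and Nlrc5 in the dKO-labelled library, so each passed the limit on the mean through the library where it was high. Trim34a, Ccl5 and Tnfsf10 are named to complete these counts, and Uba7 and Ube2l6 for their role, after their values were seen. Ifi30, Ccl5 and Casp1 are also made by leukocytes.

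**Figure D5:**
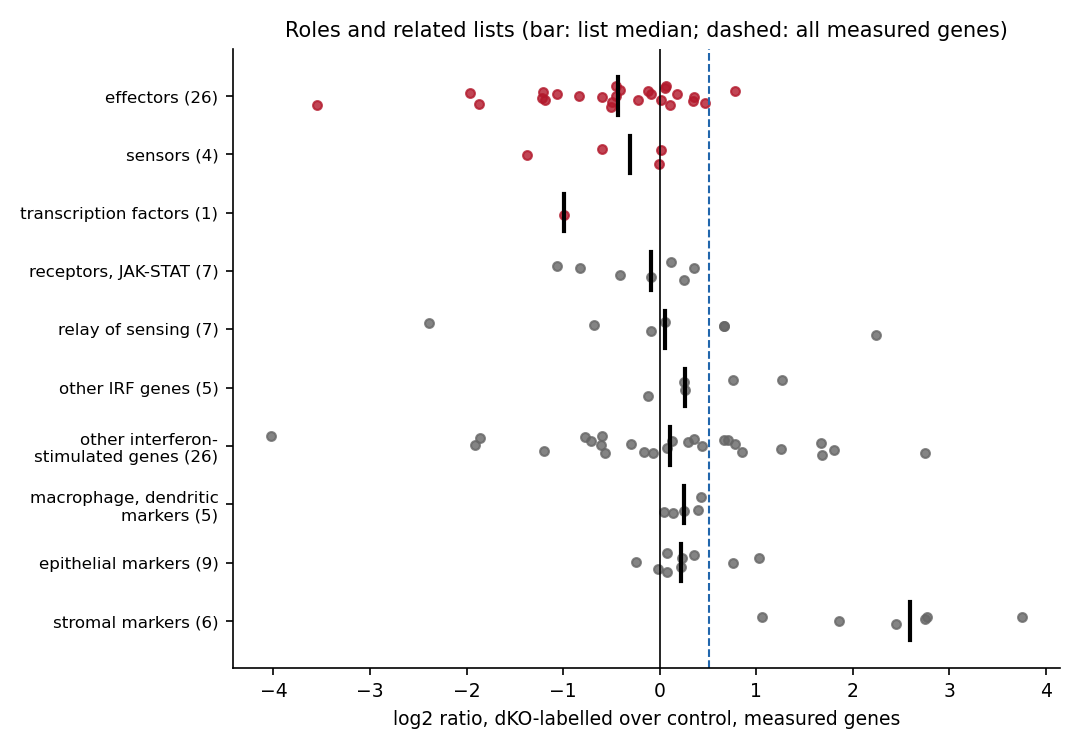
Log2 ratio, dKO-labelled over control (horizontal), of each measured gene in the 3 role classes (red) and in related and marker lists (grey), with the list median as a black bar and the number of measured genes in brackets. The medians of effectors, sensors and Stat2 lie at -0.43, -0.30 and -0.995, left of the dashed median of all measured genes (0.51), and stromal markers lie furthest right at 2.59.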

How the data were processed

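The submitters' processing notes name TopHat, DESeq and the mm9 build. Per the labels' protocols, villus RNA was made into TruSeq RNA v2 libraries. The sources used here name no counting tool, strand setting or duplicate treatment. The deposited signal values are normalised read counts per RefSeq transcript (22040 rows), per the file headers DESeq base means. Each was a whole multiple of its column's smallest value in 100% of rows (tolerance 0.001), and none was 0, which is read as 1 read added before scaling. Reads are steps minus 1. The deposited fold change is the ratio of both columns, the deposited log2 fold its log2, and the authors' p-value is unadjusted.

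The measure was log2((dKO + 1)/(control + 1)), called at 2-fold for a mean of at least 20. Ratios of reads were divided by the size factor ratio of 1.11. A count of 0 was set against a floor of 3 reads. Lengths came from GENCODE M21 (35 of 36 genes), for levels per length and stretches of 50 bases. Identifiers matched RefSeq for 98.5% of rows, and 32 of 33 symbols turned into dates were resolved. Pairs used the conditional odds ratio with its exact interval, 14 in all, chosen with values known. The 37 genes, the lists and the 2-fold rule were chosen with earlier results of these data known. Named genes outside the 37 were up to 6 measured genes per list with the largest absolute log2 ratio, with the interferon ligand and receptor genes. Not every gene so chosen is reported here. Alternatives were 4 other scalings, pseudocount 5, other filters and size rules, summed rows and thinning. Functions were tested on simulated data. TMM scaling came from edgeR 4.0.16 (R 4.3.3), and all else used scipy 1.17.1, matplotlib 3.10.9, numpy 2.4.6 and pandas 2.3.3 under Python 3.11.15.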

Additional observations from a re-analysis of the deposited data

How the results depend on the processing

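No paired analysis was possible because each genotype had 1 library, and for the same reason no replicate could be left out. Of the 31 measured genes, 8 were at least 2-fold lower. They numbered 10 with total counts, 14 with TMM, 17 with the upper quartile and 13 with the median of measured genes set to 0. Thinning gave 10, and pseudocount 5 or summed rows gave 8. Other filters also changed the number of genes kept. Lower were 8 of 36 with no filter, 6 of 26 with a minimum mean of 50 and 3 of 21 with 100. Of all genes, 892 of 20722, 164 of 3882 and 104 of 2414 were lower in those settings. Of the 31, 12 were lower at 1.5-fold, 3 with the interval beyond 2-fold and 16 with the interval leaving out equality. All genes lower by those 3 rules numbered 527, 104 and 729 of 6001. Interferon-stimulated genes at least 2-fold higher numbered 0, but 1 with no filter (Ifih1, not measured), 1 at 1.5-fold and 3 with the interval leaving out equality. All genes higher in those 3 settings numbered 3704, 2755 and 3148. Of 2 alternatives added after seeing the data, taking off the added read gave 9 lower, Stat2 among them. An exact binomial test on the reads, with Benjamini-Hochberg adjustment over all measured genes, called 15 lower and 3 higher (698 and 3013 of all genes). It compares the libraries, not the genotypes.

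The median of -0.45 became -0.74 (total counts), -1.06 (upper quartile), -0.95 (TMM), -0.96 with the median set to 0, -0.74 after thinning, -0.40 with pseudocount 5, -0.32 unfiltered and -0.23 at a minimum mean of 100. For effectors (-0.43) the values were -0.72, -1.05, -0.94, -0.94 and -0.72 in the same order of scalings, and -0.32 unfiltered, -0.32 at a minimum of 50 and -0.17 at 100. For sensors (-0.30) they were -0.60, -0.93, -0.82, -0.81 and -0.52, then -0.0087 with no filter and -0.60 at 50. Scalings shifted all genes too, by -0.30 (total counts), -0.64 (upper quartile) and -0.53 (TMM). All genes lower and higher numbered 251 and 1574, then 436 and 970 (total counts), 818 and 528 (upper quartile), 665 and 657 (TMM), and 626 and 711 with the median set to 0. The read counts, not the number of animals, set the intervals.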
